A study of Caenorhabditis elegans with 6 samples.

Results

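The left arm of chromosome V of *Caenorhabditis elegans* was examined for histone marks in larval muscle. The arm was taken as all windows of the deposited count table on chromosome V whose midpoint lay from 100 kb to below 5.9 Mb of the ce10 assembly. It comprised 5800 of 100293 windows of about 1 kb, of which 5574 held at least 1 read, out of 99485 such windows in the genome. It was compared with the centre of the same chromosome, whose borders were those of the study's methods, with 5641 windows that held reads.

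Cells labelled as body wall muscle of L3 larvae were profiled by ChIC-seq, in which an antibody tethers protein A fused to micrococcal nuclease (MNase) to a histone mark and the DNA cut nearby is sequenced. The genotypes were N2 (Bristol), the wild type (WT), and met-2(n4256) III, a mutant of the *met-2* gene on chromosome III. Of the 6 libraries, 3 came from WT cells with an antibody to H3K9me2, H3K9me3 or H3K27ac, 1 came from *met-2* cells with the H3K27ac antibody, and each genotype had a control treated with MNase but no antibody, so H3K9 methylation was not measured in the mutant. All came from fixed, Hoechst-gated cells of synchronized larvae, with 1 library per group, so the spread between replicates is unknown, every difference is one between libraries, and no p-value was computed.

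The arms of worm autosomes are known for many repeats and for H3K9 methylation, which anchors them at the nuclear periphery, whereas the centres hold most broadly expressed genes. MET-2 is a SETDB1-like enzyme that places mono- and dimethylation on H3K9, and another enzyme, SET-25, places trimethylation. H3K27ac marks active promoters and enhancers and is laid down by acetyltransferases of the CBP type. The arms of chromosome V are also known for large clusters of chemoreceptor genes. No ce10 annotation or genome was used here, so windows are given by position without genes or sequence, and the muscle label was not checked against muscle genes. The study sorted muscle cells by a red fluorescent reporter of the muscle myosin gene *myo-3*, and a figure legend names this sort for both RNA-seq and ChIC-seq. Its ChIC-seq methods name only the Hoechst gate, and the labels give the strains without the reporter.

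Read depth in the arm set the precision of single windows. The libraries held between 2475550 reads (*met-2* control) and 28519008 reads (H3K9me3). The median arm window held 262 reads of H3K9me3, 189 of H3K9me2, 95 of WT H3K27ac, 177 of *met-2* H3K27ac, 69 of the WT control and 21 of the *met-2* control. Values over the *met-2* control are therefore the least precise. Intervals of read counts below cover counting error only, and intervals of medians and of shares of windows treat windows as independent.

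H3K27ac was the mark that set the arm apart from the centre. The arm contained 5.60% of all windows with reads but 4.26% of the WT H3K27ac reads (95% Wilson interval 4.25 to 4.27) and 4.45% of the *met-2* H3K27ac reads (4.44 to 4.46). For comparison, it held 5.33% of the H3K9me3 reads, 5.11% of the H3K9me2 reads, 5.24% of the WT control reads and 5.27% of the *met-2* control reads. Scaled to equal library totals, an arm window carried on average 129.7 WT H3K27ac reads, 0.644 times the 201.4 reads of a centre window. This ratio was 0.689 for *met-2* H3K27ac, 0.854 for H3K9me3 and 0.829 for H3K9me2. The controls were also lower in the arm, at 0.906 times the centre in WT and 0.818 times in *met-2*, but by less than the H3K27ac libraries.

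Enrichment was next calculated as log2 of the scaled reads of a mark plus 8, minus the same value of the control of the same genotype, and windows above 0.5 were called enriched. The median WT H3K27ac enrichment of arm windows was 0.0093 (95% interval -0.012 to 0.039), against 0.46 (0.43 to 0.49) in the centre. H3K27ac was enriched in 1674 arm windows (30.0%), whereas 41.8% of all windows and 48.4% of centre windows were enriched. It lay below -0.5 in 1751 arm windows (31.4%), compared with 21.3% of all windows and 15.5% of the centre. In *met-2* the medians were -0.15 in the arm and 0.11 in the centre, and 1165 arm windows (20.9%) were enriched against 31.0% of all windows. Both genotypes thus had less H3K27ac over the control in the arm than in the centre, with the larger gap in WT.

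H3K9 methylation did not separate the arm from the centre in the same way. The median H3K9me3 enrichment was 0.35 (0.32 to 0.38) in the arm and 0.39 (0.36 to 0.42) in the centre, with overlapping intervals. In the right arm of V the median was 0.57. H3K9me3 was enriched in 2467 arm windows (44.3%), close to the 42.7% of all windows. H3K9me2 was enriched in 1943 (34.9%), against 36.1% of all windows, and its median was 0.16 (0.13 to 0.19) in the arm and 0.26 (0.23 to 0.29) in the centre. Taken over the *met-2* control instead, the H3K9me3 medians were 0.12 in the arm and 0.037 in the centre, so the order of arm and centre turned. The H3K9me2 medians over that control were -0.079 and -0.076. The sign of a median depended on the scaling, since TMM factors moved the median of all windows by -0.28 for H3K9me3 and WT H3K27ac and by -0.16 for H3K9me2. With TMM, enriched windows were 53.8% of the arm windows past 0.5 in either direction for H3K9me3 (68.9% with library totals), 49.5% for H3K9me2 (59.0%) and 33.3% for WT H3K27ac (48.9%).

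**Figure D1:**
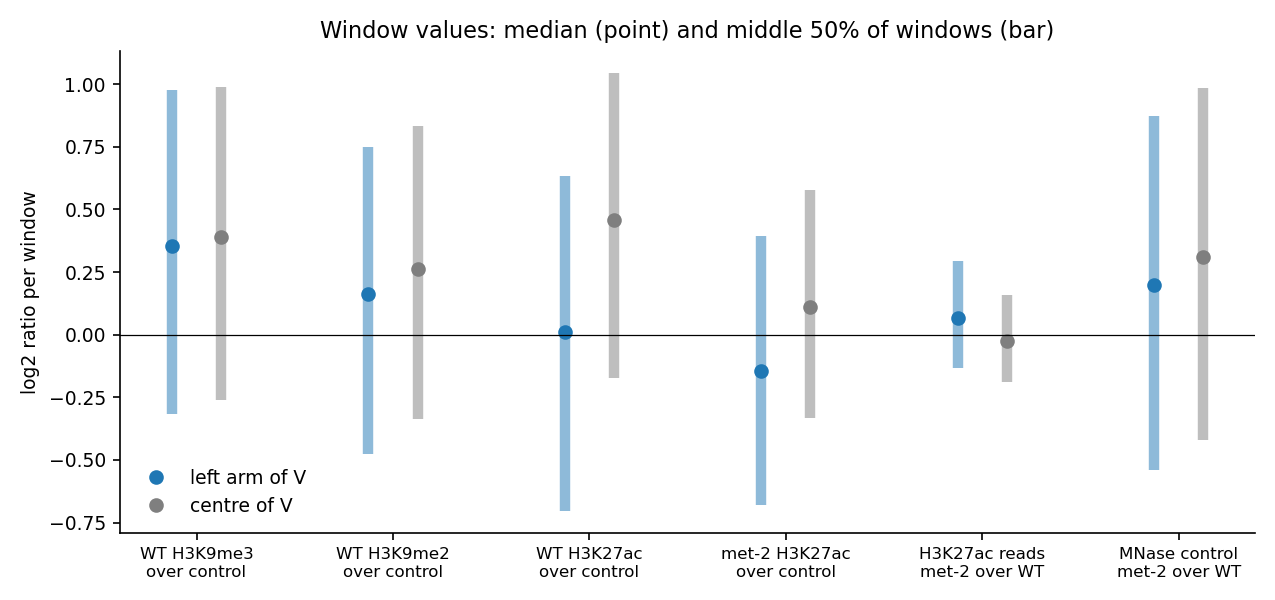
Log2 ratios per window in the left arm (blue, 5574 windows) and the centre (grey, 5641 windows) of chromosome V, with the median as a point and the range between the quartiles of the windows as a bar. The medians of WT H3K27ac over the control lie at 0.0093 and 0.46, while those of H3K9me3 lie at 0.35 and 0.39, and the bars overlap for every measure.

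The arm was then placed among the 15 arms and centres of the autosomes. For WT H3K27ac enrichment it ranked 14th, above the right arm of V only (-0.073), while the other 8 arms lay between 0.054 and 0.30 and the 5 centres between 0.45 and 0.49. For H3K9me3 it ranked 6th, with 4 other arms and the centre of V above it, and for H3K9me2 it ranked 9th. The low H3K27ac of the arm was therefore near one end of the range of chromosome parts, and its H3K9 methylation lay inside the range of both arms and centres.

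**Figure D2:**
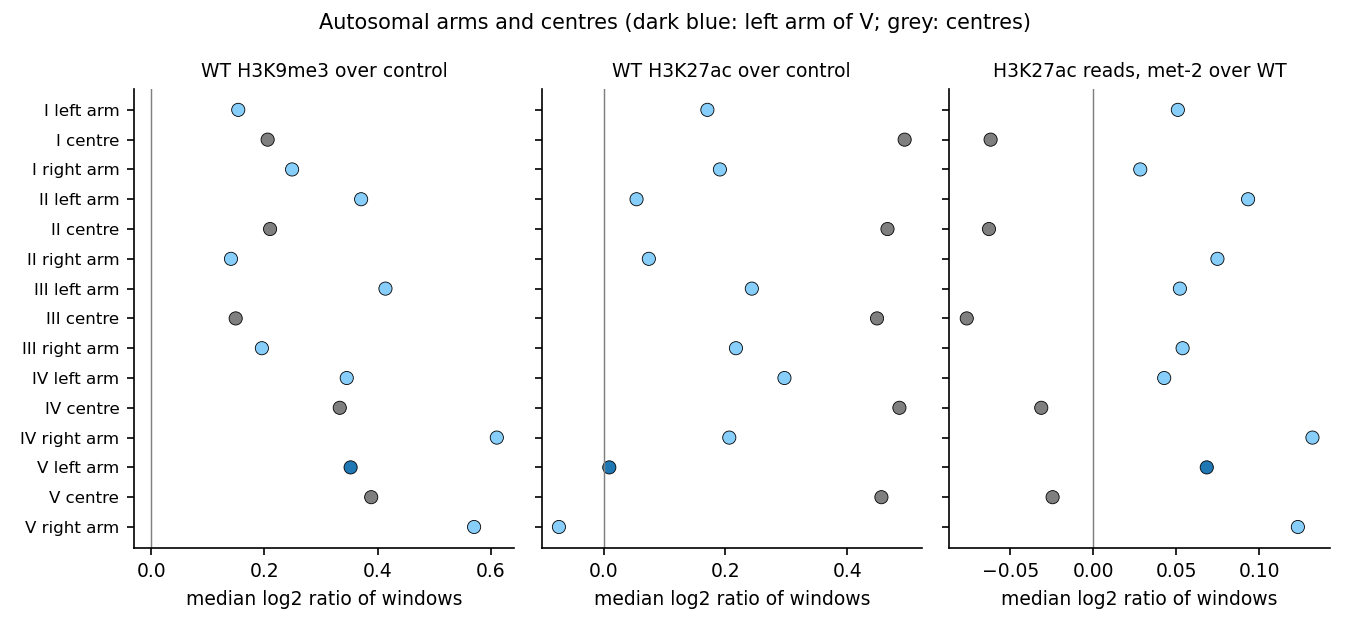
Median log2 ratio over the windows of each autosomal arm (light blue) and centre (grey), with the left arm of V in dark blue, for WT H3K9me3 and WT H3K27ac over the WT control and for H3K27ac reads in *met-2* over WT. All 5 centres lie right of all 10 arms for WT H3K27ac and left of them for the H3K27ac read change, whereas arms and centres mix for H3K9me3.

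Along the arm, reads were summed in 58 bins of 100 kb. The 3 bins with fewer than 50 windows that held reads were left out of rankings, which left 55. WT H3K27ac ran from 80.3 to 186.7 scaled reads per window (median 130.5), and every bin lay below the centre's mean of 201.4. The level was higher towards the centre of the chromosome, with a Spearman rho of 0.40 between bin position and WT reads and 0.39 for *met-2* reads (55 bins of the same libraries). The inner part of the arm (3.97 to 5.9 Mb) averaged 146.8 WT H3K27ac reads per window, compared with 124.8 in the outer part (0.1 to 2.03 Mb) and 116.1 in the middle part. The gradient was not shared by H3K9me3 reads (rho of -0.08) and was smaller for H3K9me2 reads (0.13), the WT control (0.07) and the *met-2* control (0.17). Over the control of the same genotype, the rho of H3K27ac was lower, at 0.26 in WT and 0.25 in *met-2*. In bins of 50 kb these were 0.23 and 0.20.

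Over the WT control, summed H3K27ac reads lay above 0 in 6 of 55 bins. The lowest bins were 0.4 to 0.5 Mb (-0.90, from 7731 H3K27ac and 10455 control reads) and 1.9 to 2.0 Mb (-0.77, 8024 and 9865 reads). The highest were 3.3 to 3.4 Mb (0.29, from 11575 and 6870 reads) and 5.0 to 5.1 Mb (0.12, 12448 and 8259 reads). The bin at 3.3 to 3.4 Mb also had the highest H3K9me2 ratio (0.40, 21837 reads) and an H3K9me3 ratio of 0.29, all over the same 6870 control reads. In *met-2* its H3K27ac ratio over the *met-2* control was -0.036.

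The H3K9me3 ratio over the WT control was highest at 2.9 to 3.0 Mb (0.48, 30380 reads against 7552 control reads), where WT H3K27ac was low (-0.69). That bin held 180.9 scaled H3K9me3 reads per window, below the 186.8 at 0.4 to 0.5 Mb. Its WT control held 129.8 scaled reads per window, against a bin median of 154.7. The H3K9me3 ratio was next highest at 0.6 to 0.7 Mb (0.39), where H3K27ac was -0.0011. It was lowest at 4.5 to 4.6 Mb (-0.60, 25867 reads) and 4.8 to 4.9 Mb (-0.24). The bin at 4.5 to 4.6 Mb also had the lowest H3K9me2 ratio (-0.36, 25489 reads), but its H3K9me2 reads were not low. It held 181.4 scaled H3K9me2 reads per window, against a bin median of 155.7. Its 13594 WT control reads, the denominator of both ratios, were 233.6 scaled reads per window, the highest of all bins. H3K9me2 was next lowest at 2.2 to 2.3 Mb (-0.34) and next highest at 3.7 to 3.8 Mb (0.26, 26213 reads), where H3K9me3 was at -0.20. Summed over bins the methyl marks varied around 0, with medians of 0.026 for H3K9me3 and -0.017 for H3K9me2, while the medians of single windows were 0.35 and 0.16. These are different quantities, since a sum gives more weight to the windows with most control reads.

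**Figure D3:**
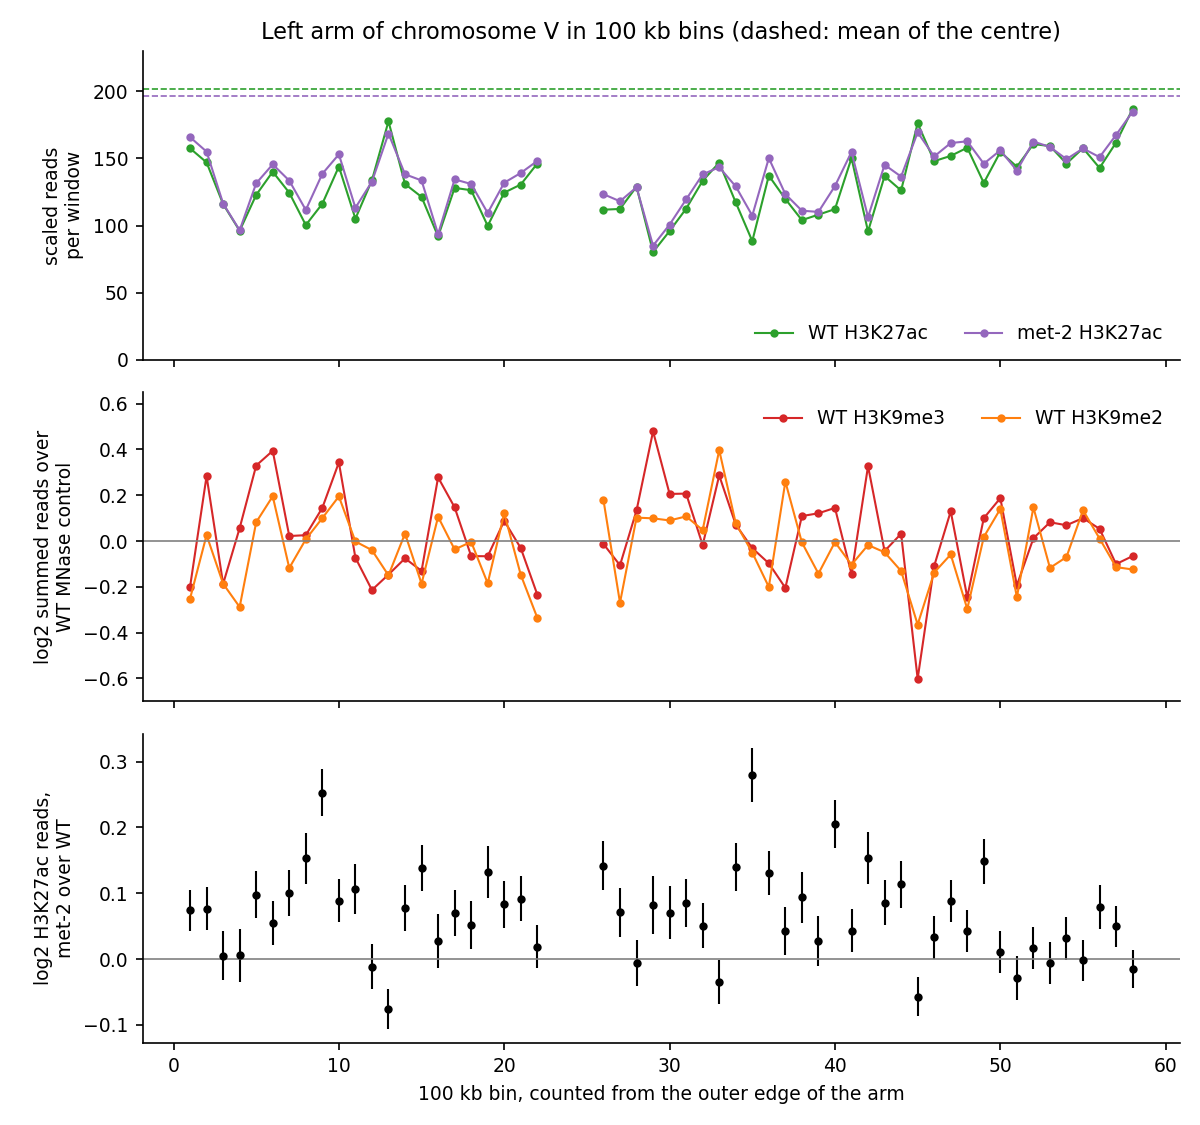
Values in 100 kb bins from the outer edge (bin 1) to the inner edge (bin 58) of the left arm: scaled H3K27ac reads per window, with the centre's mean dashed, log2 ratios of H3K9me3 and H3K9me2 over the WT control, and log2 H3K27ac reads in *met-2* over WT with 95% counting intervals. H3K27ac stays below 201.4 reads in every bin shown, and the read change lies above 0 in 46 of 55 bins, with 3 sparse bins left blank.

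Domains of H3K9 methylation, defined as at least 3 consecutive enriched windows, were about as frequent in the arm as in the centre. H3K9me3 formed 309 domains that covered 23.2% of arm windows, against 324 domains and 24.2% in the centre. H3K9me2 formed 193 domains that covered 13.0%, against 227 and 15.7%. Over the *met-2* control there were 121 arm domains of H3K9me3 (92 in the centre) and 96 of H3K9me2 (87). The number of domains and the order of arm and centre thus changed with the control.

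The longest H3K9me3 domain of the arm lay at V 403165 to 416164 and spanned 13 windows with 3650 H3K9me3 reads against 486 WT control reads (log2 ratio 1.38). Only 5 of its windows were enriched over the *met-2* control, where its ratio was 0.23. It contained an H3K9me2 domain, the third in length (V 408165 to 415164, 7 windows, 1508 H3K9me2 and 201 control reads). The next H3K9me3 domains spanned 12 windows each, at V 3171140 to 3183138 (1.28 over the WT control, -0.096 over the *met-2* control) and V 5067122 to 5079121 (1.09 and 0.14). The longest H3K9me2 domains spanned 8 windows, at V 563164 to 571163 (1.07 over the WT control, -0.32 over the *met-2* control) and V 1060159 to 1068158 (1.54 and 0.15). In the first of these 0 windows were enriched over the *met-2* control, and in the other 3 were.

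Single windows named by rank showed the same dependence. The highest H3K9me3 enrichment, 3.48 at V 1030159 to 1031158, came from 266 H3K9me3 reads against 4 WT control reads, and over the *met-2* control (16 reads) it was 0.50. This window was also the highest for WT H3K27ac (3.37, 117 reads). The window at V 4089131 to 4090130 kept more of its H3K9me3, with 525 reads, 2.98 over the WT control and 1.08 over the *met-2* control, inside a run of 6 enriched windows. The highest H3K9me2 enrichment, 3.77 at V 4980123 to 4981122, came from 671 H3K9me2 reads against 16 WT control reads. Over the *met-2* control it was 0.44, so this window was not enriched there. The windows at V 3422137 to 3423136 and V 1855152 to 1856151 held 1170 and 576 H3K9me2 reads. Both were enriched over both controls (3.33 and 1.93, 3.42 and 1.53). H3K9me3 in these windows was 291 and 158 reads, which was enriched over the WT control (1.12 and 1.39) but not over the *met-2* control (-0.28 and -0.51).

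The methyl marks overlapped in 1537 arm windows, 62.3% of the H3K9me3 windows and 79.1% of the H3K9me2 windows. In the centre the shares were 68.5% and 79.4%, and over all windows they were 64.4% and 76.2%. Both lists used the WT control. With a separate control for each mark, the overlap was 40.3% of H3K9me2 windows when H3K9me3 was taken over the WT control and 32.9% when it was taken over the *met-2* control. Over both controls at once, 928 arm windows (16.6%) were enriched for H3K9me3, 744 (13.3%) for H3K9me2 and 370 (6.64%) for both. Over all windows the shares were close to these, at 16.2%, 14.4% and 6.67%.

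The *met-2* and WT H3K27ac libraries were then compared by their reads alone, without the controls, which differed in depth. The arm's share of H3K27ac reads was 1.04 times as high in *met-2* as in WT, while the centre's was 0.976 times and the right arm's 1.08 times. The median log2 change of arm windows was 0.068 (0.058 to 0.079), against -0.025 (-0.032 to -0.015) in the centre, 0.12 in the right arm and 0.014 over all windows. The change was larger in the arm than in all 5 autosomal centres (-0.076 to -0.025), and the arm ranked 5th of 15 parts. Under TMM scaling the median of all windows moved by -0.015, which is less than the median of the arm.

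Windows with more H3K27ac in *met-2* made up most of the larger differences. The change exceeded 0.5 in 555 arm windows (9.96%, Wilson interval 9.20 to 10.8), against 7.16% of all windows, 3.39% of the centre and 14.9% of the right arm. It lay below -0.5 in 179 (3.21%), against 3.07% of all windows and 2.91% of the centre. The counting interval of the log2 read ratio lay above 0 in 539 of the 555 higher windows and below 0 in 169 of the 179 lower windows. Over all windows it did so in 6806 of 7123 higher and 2894 of 3052 lower windows. The same ratio chose these windows, so the intervals add no separate evidence of a change. The higher windows had a median of 60 WT H3K27ac reads against 95 over the whole arm, and 169 *met-2* reads against 177. WT reads are the denominator of the ratio that chose these windows, and the medians over all windows were 66 against 130, so this is no finding about the arm. They were spread along the arm, at 10.7% of windows in the outer, 11.5% in the middle and 7.82% in the inner part.

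Some higher windows lay side by side. There were 75 runs of at least 2 adjacent higher windows, with 187 windows in all. These were 33.7% of the arm's higher windows, close to the 33.8% over all windows, and the centre had 14 such runs with 31 windows (16.2%). The longest run, chosen after its values were seen, spanned 8 windows at V 1493155 to 1501154, with 590 H3K27ac reads in WT and 1977 in *met-2*. After scaling this was a 1.95-fold higher level in *met-2* (log2 0.96, counting interval 0.83 to 1.10), and the windows had a median H3K9me3 enrichment of 0.80. A run of 5 windows at V 996160 to 1001159 held 390 and 1185 reads (1.77-fold) with a median H3K9me3 enrichment of 0.82. A run of 6 windows at V 4425128 to 4431127 held 403 and 1111 reads (1.60-fold), but its median H3K9me3 enrichment was -0.046. Runs with more H3K27ac thus occurred with and without H3K9me3 over the WT control. Their H3K9me3 over the *met-2* control is not given here. The longest run held 2352 H3K9me3, 678 WT control and 210 *met-2* control reads.

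The single windows with the largest increase had few reads. At V 2659144 to 2660143 there were 20 reads in WT and 134 in *met-2*, a 3.90-fold higher scaled count (log2 of 1.67 with the pseudocount). At V 4477127 to 4478126 the counts were 19 and 102 (3.12-fold), and at V 912161 to 913160 they were 9 and 55 (3.55-fold). The *met-2* control held 3 to 5 reads in these windows.

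In 100 kb bins the change lay above 0 in 46 of 55 bins, with a median of 0.071 and a range of -0.076 to 0.28. The widest counting half-interval of a bin was 0.044. The largest changes were at 3.5 to 3.6 Mb (0.28, 6900 reads in WT and 14402 in *met-2*) and 0.9 to 1.0 Mb (0.25, 9347 and 19150 reads). The lowest were at 1.3 to 1.4 Mb (-0.076, 14280 and 23295 reads) and 4.5 to 4.6 Mb (-0.057, 14168 and 23415 reads). Over the WT control, WT H3K27ac was -0.71 at 3.5 to 3.6 Mb and -0.053 at 0.9 to 1.0 Mb, and -0.11 and -0.41 in the bins with the lowest change. Across bins the change fell slightly towards the centre of the chromosome (rho of -0.21).

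The change differed between windows of different H3K9 methylation. Its median was 0.17 in the 930 arm windows enriched for H3K9me3 only, 0.083 in the 1537 enriched for both marks, 0.041 in the 2701 enriched for neither and 0.0087 in the 406 enriched for H3K9me2 only. In the centre the same classes had medians of 0.031, -0.0033, -0.040 and -0.094, in the same order and lower in each class. More than 0.5 was reached in 15.9%, 10.3%, 8.48% and 4.68% of these arm windows. In the centre the shares of the same classes were 5.10%, 3.72%, 2.88% and 1.99%. Without classes, the share was 9.96% of arm windows and 7.16% of all windows. Shares of these classes over all windows are not given, so the class shares do not compare the arm with the genome. The median H3K27ac level of these arm classes, taken as the mean of WT and *met-2* scaled reads, was 122.3 to 124.5. The spread of levels within the classes was not compared, and a part of the level in the class differences was not tested. With classes set by the *met-2* control the H3K9me3-only windows still had the largest median (0.14, 702 windows), but windows with both marks (0.033) had a smaller one than windows with neither (0.068). Of the 928 arm windows with H3K9me3 over both controls, 144 (15.5%) were higher in *met-2*, compared with 12.3% of such windows in the genome and 5.44% in the centre.

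The change also moved with the H3K27ac level itself. When all windows were divided into 5 classes of equal size by their mean H3K27ac level in both genotypes, 37.9% of arm windows fell in the lowest class and 7.68% in the highest, against 8.05% and 24.9% of centre windows. From the lowest to the highest class the median change in the arm was 0.12, 0.11, 0.046, 0.011 and -0.066. In the centre it was 0.055, 0.079, -0.0016, -0.047 and -0.11, so the arm was higher in each class. The intervals of arm and centre overlapped in the first, second and last class. Averaged over the classes, the arm exceeded the centre by 0.048, compared with 0.093 without classes. The part of the H3K27ac level in the difference between arm and centre was not tested further.

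**Figure D4:**
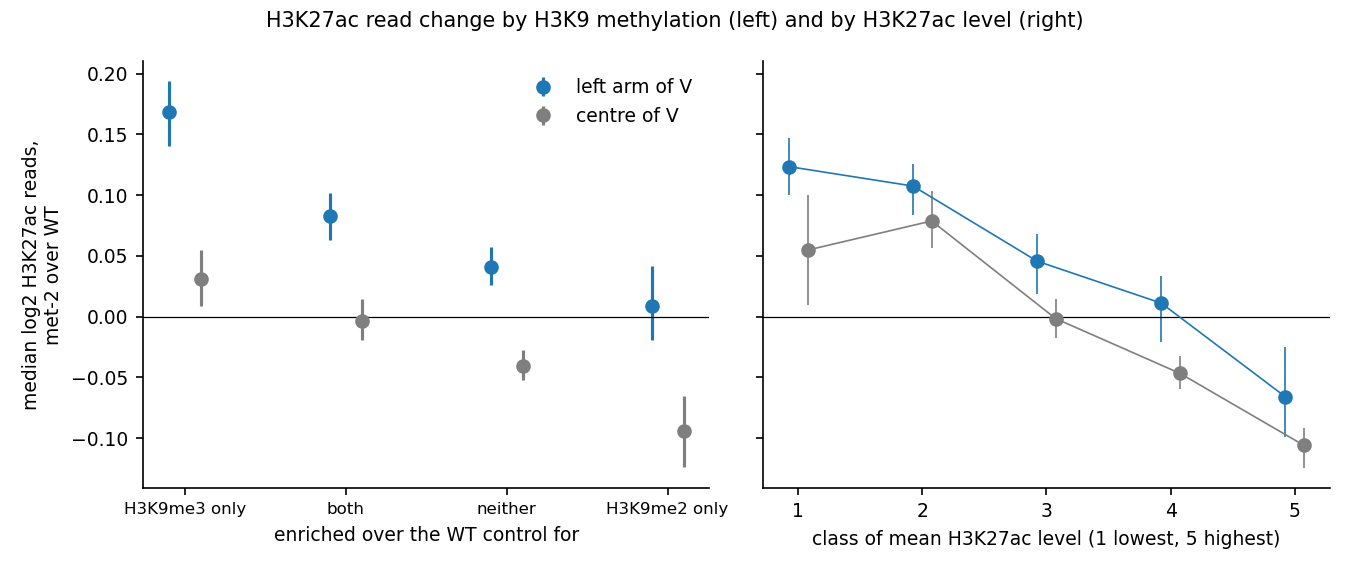
Median log2 H3K27ac reads in *met-2* over WT, with 95% intervals that treat windows as independent, for windows of the left arm (blue) and the centre (grey) by enrichment of H3K9me3 and H3K9me2 over the WT control (left) and by class of mean H3K27ac level (right). The arm lies above the centre in all 4 methylation classes and all 5 level classes, and H3K9me3-only windows of the arm are highest at 0.17.

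Over the controls, the sign of the H3K27ac difference in the arm depended on the processing. Subtracting WT from *met-2* enrichment gave a median of -0.13 in the arm and -0.32 in the centre with library totals. With TMM the arm median was 0.051, in windows of 10 kb it was 0.0065, and the median of 100 kb bins was 0.062 with 32 of 55 bins above 0. The centre stayed negative with TMM (-0.13) and in windows of 10 kb (-0.21). It exceeded 0.5 in 1632 arm windows (29.3%, against 28.2% of all windows) and lay below -0.5 in 1980 (35.5%, against 36.7%), shares near those of all windows. The controls themselves differed by a median of 0.20 in the arm and 0.31 in the centre, with 2162 arm windows higher in *met-2* (38.8%, against 37.9% of all windows) and 1466 lower (26.3%, against 27% of all windows). TMM scaling moved the median of all windows by 0.18 for the enrichment change and by -0.19 for the control difference. Higher windows were 45.2% of the arm windows past 0.5 for the enrichment change with library totals and 54.6% with TMM, and for the control difference 59.6% and 49.1%.

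The largest changes in enrichment came with large differences between the controls. At V 2642144 to 2643143 the change was 6.39, where the WT control held 413 reads and the *met-2* control 1, while the H3K27ac reads were 26 and 86. At V 4980123 to 4981122 it was -3.37, with 16 and 51 control reads, and the H3K27ac reads of 154 and 258 gave a change of -0.036 without the control. In bins the enrichment change was highest at 4.5 to 4.6 Mb (0.55), where the read change was -0.057. It was lowest at 3.3 to 3.4 Mb (-0.32), where the read change was -0.034.

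The arm also held the longest stretch of the genome nearly without reads, taken as windows with at most 10 reads over the 6 libraries, where runs of such windows parted by 1 window were joined. It spanned 216 windows at V 2347147 to 2563144, of which 204 had no read in any library. It joined a run of 139 and a run of 76 windows across 1 window that held 59 of its reads, and each run alone was longer than any other in the genome. The whole stretch held 87 reads, of which 30 were H3K9me3, 26 *met-2* H3K27ac, 18 WT H3K27ac, 9 H3K9me2, 4 *met-2* control and 0 WT control. At the library average 61421 H3K9me3 reads would lie in a stretch of this size. The 10 windows before it held 7702 reads and the 10 windows after it 7632, so the stretch had sharp ends. The next longest such stretch, of 67 windows at V 8814087 to 8881086, lay in the centre. In all, 226 arm windows (3.90%) had no read, against 83 in the centre (1.45%) and 0.806% of all windows. The values of the arm in this text are for windows with reads, and the marks of the stretch were not measured.

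Reads were lost in *met-2* in 1 place of the arm. The rule was at least 50 *met-2* H3K27ac reads predicted from WT and at most 3 found. All 3 windows of the genome that met it lay in this place. The 3 adjacent windows at V 5080122 to 5083121 held 144, 213 and 127 H3K27ac reads in WT and 2, 0 and 0 in *met-2*. The WT control held 67, 90 and 87 reads there and the *met-2* control 0 in each. In the WT libraries the windows held 720 H3K9me3 and 528 H3K9me2 reads. From the WT reads and the library totals, 832.1 *met-2* H3K27ac reads and 61.1 *met-2* control reads were predicted, and 2 and 0 were found. The *met-2* control, which had no antibody, thus lacked reads in these windows as the *met-2* H3K27ac library did, so the difference was not confined to the mark. The window at V 5079122 to 5080121 held 0 to 2 reads in every library and that at V 5083122 to 5084121 held 0 or 1. A window further in, 46 H3K27ac reads were found in *met-2* and 36 in WT, with 0 *met-2* control reads, and in the 6 windows after it the *met-2* control held 18 to 64 reads. The other run of 3 lower windows in the arm was at V 1689153 to 1692152, with 251 H3K27ac reads in WT and 244 in *met-2* (0.565 times after scaling).

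**Figure D5:**
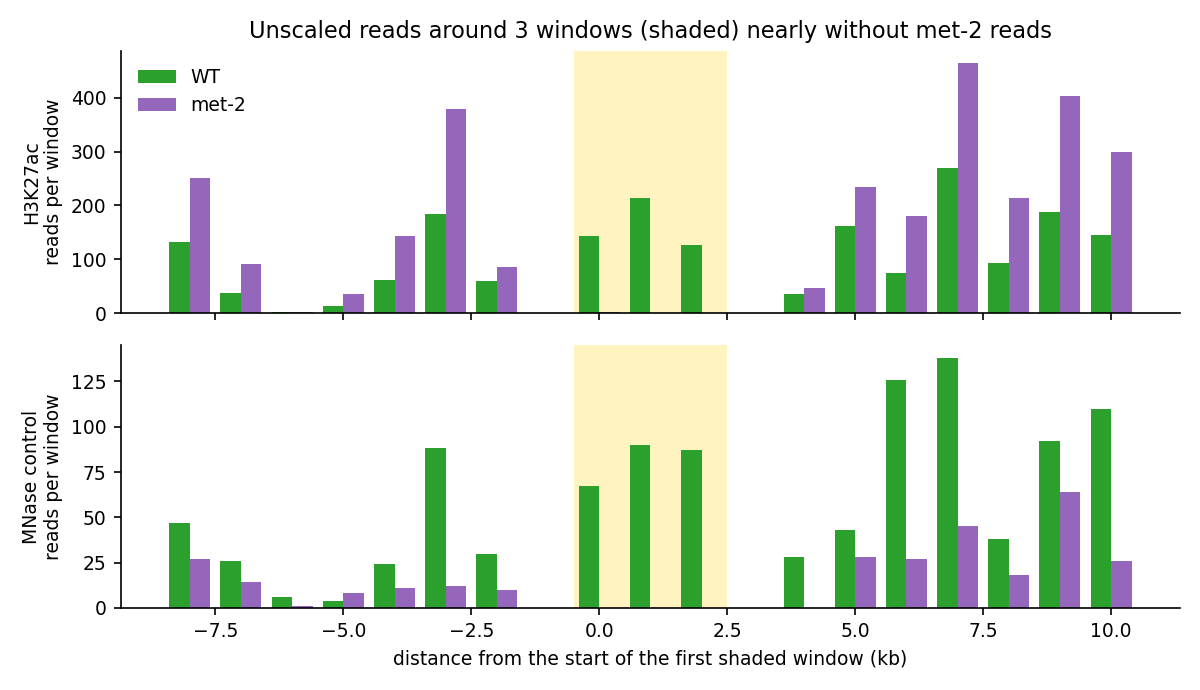
Unscaled reads per window of H3K27ac (top) and the MNase control (bottom) in WT (green) and *met-2* (purple) by distance from the first of 3 windows that nearly lack *met-2* reads (shaded). The shaded windows hold 144, 213 and 127 WT H3K27ac reads and 2, 0 and 0 in *met-2*, and both flanking windows are nearly empty in all libraries.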

How the data were processed

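The authors deposited 1 table of raw read counts per window for the 6 libraries. Per the methods, reads were trimmed with Trimmomatic 0.39, aligned to ce10 with bowtie2, deduplicated with Bismark and counted with QuasR. The methods name windows of 500 bp, while the deposited windows are about 1 kb wide. The treatment of multi-mapping reads is not given in the sources used here, so counts over repeats are uncertain. Following the authors' scheme, counts were scaled so that every library had the mean total of 16977530 reads, and log2 was taken after adding 8 as a pseudocount. The pseudocount draws low windows towards 0. The 808 windows without reads were left out. The named windows and bins were the 3 highest and 3 lowest windows (among 5496 averaging at least 20 scaled reads) and the 2 highest and lowest bins of each measure, and the 3 longest domains. The arm, these rules and the lists were chosen with earlier results of these data known, and the level classes, parts of the arm, runs and the stretch without reads after seeing the values. The calculations were run in Python 3.11.15 and edgeR 4.0.16 (TMM factors only) and were tested on simulated data. Alternatives were a pseudocount of 1, a filter on low windows, windows of 10 kb, TMM, trimmed totals, other borders, a threshold of 1 and the control of the other genotype.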

Additional observations from a re-analysis of the deposited data

How the results depend on the processing

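Each group had 1 library, which limits every comparison to these libraries, and the *met-2* control, with a median of 21 reads per arm window, was the least precise. No paired analysis was possible because the groups compared share only 1 replicate number. The results were recomputed as 130 values under the alternatives, of which 86 were classed as unchanged and 44 as moved. A value classed as unchanged could still differ clearly from the main one, as some shares of enriched windows below did. The sign turned for the H3K9me3 difference between arm and centre over the other control, whose main value was within its interval of 0. The medians given next are differences of arm minus centre. Over the control of the other genotype, the difference for H3K9me3 moved from -0.036 to 0.080, that for H3K9me2 from -0.10 to -0.0031, that for WT H3K27ac from -0.45 to -0.37 and that for *met-2* H3K27ac from -0.26 to -0.34. With the centre widened on both sides, from the inner end of the arm, the differences were -0.29 for WT H3K27ac, -0.17 for *met-2* H3K27ac, 0.065 (0.093 before) for the read change and 0.11 (0.19 before) for the enrichment change. With the arm extended to the methods' left border they were -0.38, -0.21 and, for the read change, 0.071. Windows of 10 kb gave -0.52 for WT H3K27ac. Within classes of H3K27ac level, an alternative chosen after seeing the data, the read change difference was 0.048.

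Shares of arm windows past the threshold were lower at a threshold of 1, at 24.0% for H3K9me3, 16.8% for H3K9me2, 13.7% for WT and 9.13% for *met-2* H3K27ac, 0.736% and 0.0897% for higher and lower H3K27ac reads, 16.6% and 19.4% for the enrichment change and 21.4% and 14.4% for the controls. In windows of 10 kb the same shares were 19.1%, 12.7%, 6.73%, 2.48%, 1.42%, 0.177%, 15.8%, 14.0%, 18.1% and 11.5%. Shares of all windows at these 2 settings are not given, so these values do not compare the arm with the genome. Over the other control, 19.5% of windows were enriched for WT and 33.8% for *met-2* H3K27ac. Among values classed as unchanged, H3K9me3 windows were 29.9% of the arm over that control and 32.9% with TMM, against 44.3% before. H3K9me2 windows were 26.0% and 29.0%, against 34.9%, and WT H3K27ac windows were 20.5% with TMM, against 30.0%. Of all windows, 29.9% were enriched for H3K9me3 and 28.2% for H3K9me2 over the *met-2* control. Domains of at least 5 windows numbered 90 for H3K9me3 and 35 for H3K9me2 (91 and 45 in the centre). Domains of at least 3 windows over the *met-2* control numbered 121 and 96 (92 and 87 in the centre). The overlap of the methyl marks fell from 79.1% to 40.3% or 32.9% of H3K9me2 windows with separate controls. With classes from the *met-2* control, the median read change was 0.033 for both marks, 0.14 for H3K9me3 only and 0.068 for neither. The cause of these shifts was not tested.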
